A study of Mus musculus with 9 samples.

Results

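A set of 5 secreted proteins of the extracellular matrix were followed at the RNA level in basal keratinocytes of mouse footpad skin: Postn (periostin), Tnc (tenascin C), Thbs1 (thrombospondin 1), Fn1 (fibronectin 1) and Sparc. The 5 genes were taken by name from a table of 22399 genes, in which each had 1 row. Postn, Tnc and Thbs1 were chosen by their FPKM differences between groups in these same libraries, so their differences are given as a description with no test. Fn1 and Sparc had not been picked in that way and were tested.

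The 9 RNA-seq libraries came from wild-type C57BL/6 mice. The control group was 5 months old on normal diet, the HFD group was of the same age on a high fat diet, and the aged group was 24 months old with no diet named. Each group had 3 libraries, made from cells of plantar skin released with trypsin and sorted as positive for CD49f, the integrin alpha 6 chain of basal cells, and negative for CD34, a hair follicle stem cell marker. No label says that libraries of a group came from different mice or whether mice were pooled, so every spread and p-value below covers these libraries and may be technical. The FPKM that 1 read is worth put the depth of the libraries at 23.5 to 35.8 M reads.

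Matricellular proteins are secreted into the matrix and act there on cell adhesion and growth factors more than as structural fibres. Periostin, a fasciclin domain protein, and tenascin C are made in healing and remodelling skin and bind integrins. Thrombospondin 1 binds CD47 and CD36, inhibits vessel growth and can release latent TGF-beta. SPARC binds collagen, including the collagen IV of basement membranes, and fibronectin forms fibrils that integrins hold. In skin much of this matrix is made by dermal fibroblasts, and keratinocytes contribute to it, above all in wounds.

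Upstream sequences are shown for Postn, Tnc and Sparc, the 3 of the 5 genes for which a promoter window was found. They are the 250 bases before a RefSeq start on GRCm38.p6, given 5′ to 3′ on the strand of the gene. Capitals mark letters that matched a searched motif. The Postn window is chr3:54360857-54361106 on the plus strand, the Tnc window chr4:64046937-64047186 on the minus strand, and the Sparc window chr11:55420081-55420330 on the minus strand.
Postn: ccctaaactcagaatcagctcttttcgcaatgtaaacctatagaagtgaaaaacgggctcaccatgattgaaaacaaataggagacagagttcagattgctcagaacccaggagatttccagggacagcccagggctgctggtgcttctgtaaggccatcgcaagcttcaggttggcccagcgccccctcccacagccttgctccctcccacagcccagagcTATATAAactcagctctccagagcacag
Tnc: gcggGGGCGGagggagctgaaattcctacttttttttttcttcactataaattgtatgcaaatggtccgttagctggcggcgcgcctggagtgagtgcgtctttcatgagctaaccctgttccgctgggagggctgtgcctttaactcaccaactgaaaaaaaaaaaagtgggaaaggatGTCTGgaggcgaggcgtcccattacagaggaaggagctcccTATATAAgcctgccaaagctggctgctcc
Sparc: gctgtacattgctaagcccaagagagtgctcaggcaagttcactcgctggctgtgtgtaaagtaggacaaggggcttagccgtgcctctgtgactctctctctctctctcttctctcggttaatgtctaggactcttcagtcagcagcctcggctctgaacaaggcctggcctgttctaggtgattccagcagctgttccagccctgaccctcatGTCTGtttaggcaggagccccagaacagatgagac
The Postn and Tnc windows both held TATATAA, a form of the TATA box, beginning at position -28 and -29 from the start, and the Sparc window did not. Among all 32851 promoter windows of that length, 3.04% held TATATAA on either strand. The Tnc window also held GGGCGG, the letters of a GC box, at -246 (32.7% of windows on either strand) and the SMAD letters CAGAC on the opposite strand at -70 (42.2% of windows). CAGAC also lay on the opposite strand of the Sparc window, at -35. No other match to these motifs, to the AP-1 letters TGANTCA, to the TEAD letters GGAATG or to the STAT6 motif was found on either strand of the 3 windows. The motifs were chosen after the windows had been seen, and the matches are descriptions of letters only. RefSeq lists for Postn and Tnc another start 1840 and 79 bases further upstream. The Sparc window lies inside the GENCODE M21 span of that gene, chr11:55394500-55423183, so another annotated start lies further upstream of it.

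Of the 5 genes, 4 were clearly expressed and Fn1 was not. Averaged over the 9 libraries, Sparc stood at 97.2 FPKM (fragments scaled to gene length and library size), Postn at 67.6, Thbs1 at 21.7 and Tnc at 6.60, against 0.1003 FPKM for Fn1. Sparc lay above 96.3% of the 10367 tested genes (those averaging 1 FPKM or more) and Postn above 94.2%, while Tnc lay above 38.5% of them. These levels are scaled to gene length, but the lengths used are not given in the sources used here, so comparisons between genes are approximate.

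**Figure D1:**
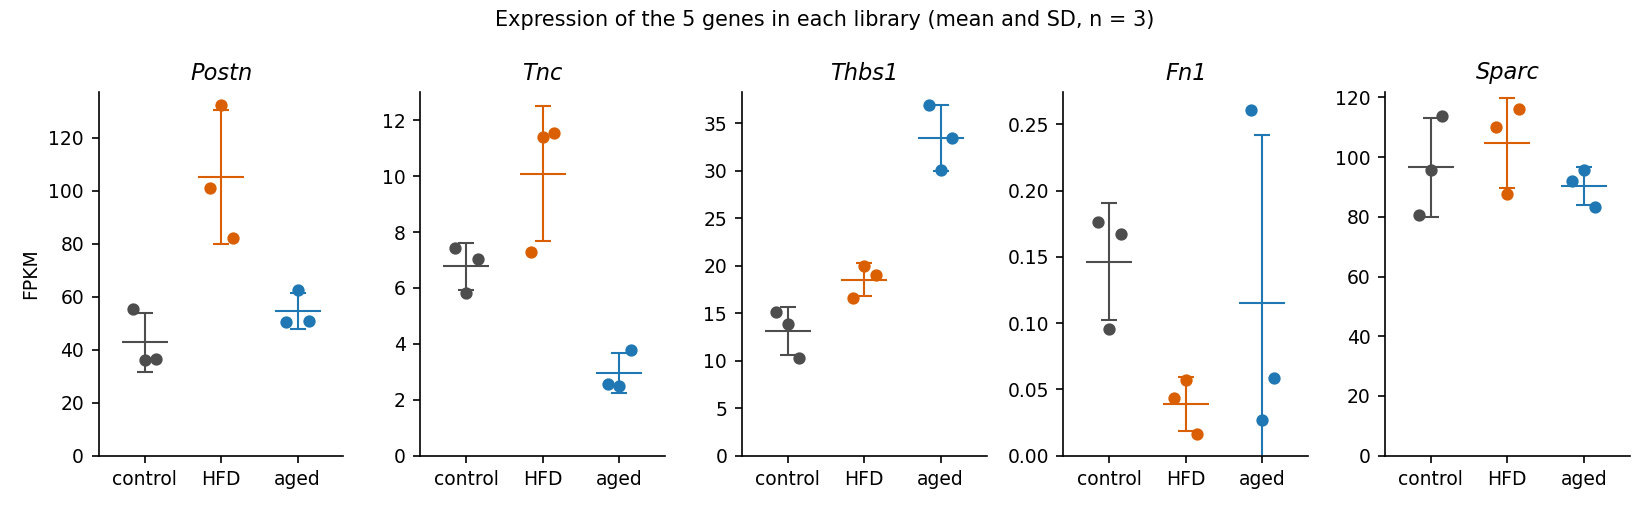
FPKM of each gene (vertical axes, each from 0) in the 9 libraries, with 1 point per library, a dash for the group mean and bars for the SD. Postn is highest in the HFD group and Thbs1 in the aged group, Tnc is lowest in the aged group, Sparc overlaps across groups, and the lower SD bar of aged Fn1 runs below 0 and is not drawn there.

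Postn was higher in HFD than in either other group. Its gene lies at chr3:54361109-54391037 on the plus strand (GENCODE M21, GRCm38), and no other annotated gene overlaps it. The control libraries 1 to 3 had 55.5, 36.3 and 36.5 FPKM, the HFD libraries 101, 132 and 82.2, and the aged libraries 50.4, 62.5 and 51.0. Every HFD library lay above every control and every aged library, whereas aged overlapped control because control replicate 1 stood above 2 of the 3 aged libraries. The means were 42.8 ± 11.05 (control), 105 ± 25.3 (HFD) and 54.6 ± 6.86 FPKM (aged) (SD, n = 3). The difference of log2(FPKM + 1) fitted by limma was 1.28 ± 0.18 (SE) for HFD against control, 0.37 ± 0.18 for aged against control and -0.91 ± 0.18 for aged against HFD. Without control replicate 1 the difference for aged against control was 0.57. Of all genes tested, 20.8% lay higher without overlap in HFD than in control, and 15.9% lay lower without overlap in aged than in HFD. The share with both was not counted. Postn had been picked for its group differences, so its separations are a description only. Between libraries of a group Postn spread more than 96.7% of tested genes, with a residual SD of 0.30 on the log2 scale. It was read deeply, with an estimated 7616 to 31306 reads per library.

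The GC content of transcripts moved with the HFD difference of genes in general. With genes split by GC into 8 bins, the median difference was 0.15 at the low end and -0.21 at the high end, and Postn, at 36.3% GC, fell in the bin of lowest GC. After a GC correction per library the Postn difference for HFD against control was 1.09. Acta2, the smooth muscle actin also made by mural and myoepithelial cells, was also highest in HFD but lowest in aged, at 5.68 ± 1.98 (control), 13.2 ± 2.08 (HFD) and 4.03 ± 1.05 FPKM (aged) (SD, n = 3). It was called higher in HFD than in control (adjusted p = 0.00562, limma), except when genes of low level were kept in the test (0.0732). In the list of 11 endothelial and mural markers only Acta2 and Cspg4 reached 1 FPKM in any library, Des was at 0 in all of them, and no other marker exceeded 0.203 FPKM. The sum of that list was 18.5 to 29.2 FPKM in control, 28.7 to 38.8 in HFD and 13.5 to 21.96 in aged, and its part in the Postn values was not tested.

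Tnc was lower in aged than in either other group. It encodes a large hexameric glycoprotein that opposes adhesion to fibronectin, from chr4:63959785-64047015 on the minus strand. Control libraries had 7.44, 5.83 and 7.04 FPKM, HFD libraries 7.30, 11.4 and 11.5, and aged libraries 2.57, 2.498 and 3.80. All 3 aged libraries lay below all 6 others, while HFD replicate 1 fell inside the control range and HFD replicates 2 and 3 above it. Group means were 6.77 ± 0.838 (control), 10.1 ± 2.41 (HFD) and 2.96 ± 0.730 FPKM (aged) (SD, n = 3). On the log2(FPKM + 1) scale the difference was 0.49 ± 0.17 for HFD against control, -0.98 ± 0.17 for aged against control and -1.48 ± 0.17 for aged against HFD. The HFD and control libraries of Tnc overlap, and without HFD replicate 1 that difference was 0.69. Among all genes tested, 14.1% lay lower without overlap in aged than in control and 15.9% in aged than in HFD. A total of 176 exonic bases of Tnc overlap an antisense transcript, and the use of strand in counting is not given in the sources used here.

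Thbs1 was the one gene of the 5 for which all 3 groups were separate. It lies at chr2:118111876-118127133 on the plus strand, and 208 of its exonic bases overlap an antisense RNA. The control libraries had 15.1, 13.9 and 10.2 FPKM, the HFD libraries 16.6, 20.0 and 19.1, and the aged libraries 36.9, 30.0 and 33.4. HFD replicate 1 lay just above control replicate 1, and the 3 aged libraries stood well apart from both groups. The means rose in the order control, HFD, aged, at 13.1 ± 2.54, 18.5 ± 1.76 and 33.5 ± 3.45 FPKM (SD, n = 3). On the log2(FPKM + 1) scale the difference was 0.48 ± 0.13 for HFD against control, 1.303 ± 0.13 for aged against control and 0.82 ± 0.13 for aged against HFD. Without control replicate 3 the first of these was 0.33, and the aged difference from control was then 1.15. Among all genes tested, 13.7% lay higher without overlap in aged than in control and 13.9% in aged than in HFD. For HFD against control that share was 20.8%, and the share with all 3 groups separate was not counted. Platelets are another known source of thrombospondin 1, and of 4 platelet markers Pf4, Ppbp and Gp9 were at 0 in every library while Itga2b stayed at or below 1.38 FPKM.

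**Figure D2:**
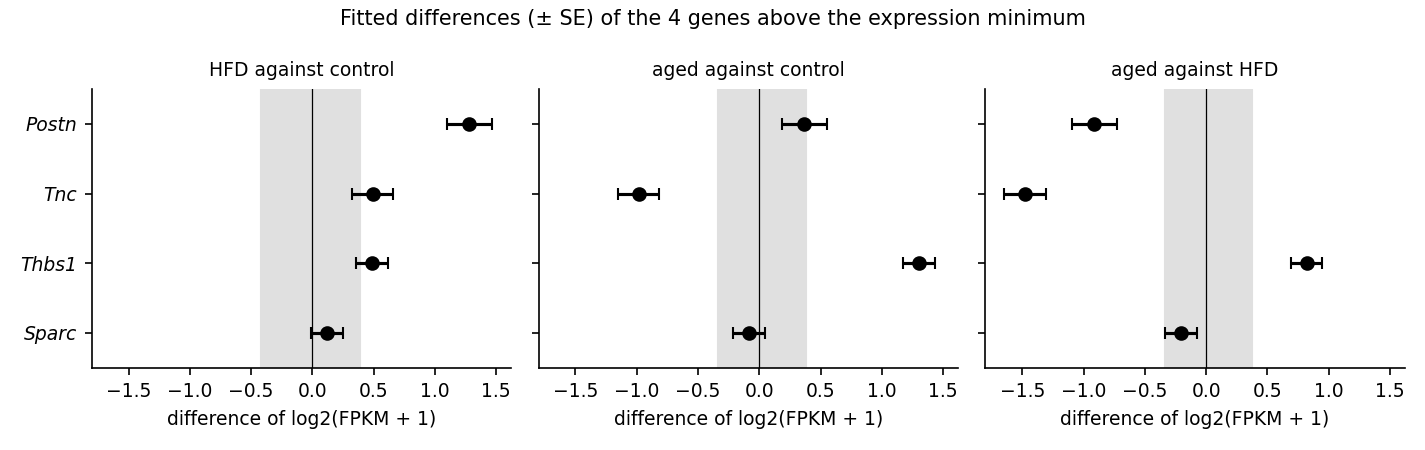
Fitted difference of log2(FPKM + 1) with its SE (horizontal axis) for the 4 genes above the expression minimum, in the 3 comparisons. The grey band spans the 5th to 95th percentile of all 10367 genes tested, -0.42 to 0.39 in HFD against control, and the 3 genes picked for their differences lie outside it in at least 2 comparisons whereas Sparc lies inside it in all 3.

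Sparc, which had the highest FPKM of the 5 genes averaged over the 9 libraries, was not called in any comparison. It lies at chr11:55394500-55423183 on the minus strand with no overlapping gene. Control libraries had 80.6, 95.7 and 114 FPKM, HFD libraries 110.3, 87.6 and 116, and aged libraries 92.0, 95.7 and 83.2. The 3 groups overlapped, with means of 96.6 ± 16.5, 104.7 ± 15.2 and 90.3 ± 6.39 FPKM (SD, n = 3). For HFD against control the log2 difference was 0.12 ± 0.13 (adjusted p = 0.558, limma with Benjamini-Hochberg adjustment), with a 95% interval of 0.891 to 1.32 on the fold scale. For aged against control it was -0.09 ± 0.13 (adjusted p = 0.713, interval 0.774 to 1.15), and for aged against HFD -0.20 ± 0.13 (adjusted p = 0.370, interval 0.713 to 1.06). The intervals leave room for changes of that size and do not show that the groups were alike. Of all genes tested, 17% were called in HFD against control, 7.76% in aged against control and 7.99% in aged against HFD.

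Fn1 was close to absent from these cells. It lies at chr1:71585520-71653200 on the minus strand and has 292 exonic bases that overlap an antisense transcript. The control libraries had 0.176, 0.0958 and 0.167 FPKM, the HFD libraries 0.0434, 0.0568 and 0.0166, and the aged libraries 0.261, 0.0269 and 0.0586. These correspond to an estimated 67, 27 and 61 reads in control, 18, 18 and 5 in HFD and 101, 10 and 21 in aged. All HFD libraries lay below all control libraries, and the aged group was spread over both by replicate 1. Of the tested genes, 19.6% lay lower without overlap in HFD than in control. An exact two-sided permutation test of the FPKM gave p = 0.1 for HFD against control, the smallest value that 3 against 3 libraries allow (0.3 after Benjamini-Hochberg adjustment over the 3 comparisons), 0.8 for aged against control and 0.4 for aged against HFD. The gene was under the minimum mean of 1 FPKM and so had no place in the fit over all genes.

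Fibroblasts are a rich source of periostin, fibronectin and SPARC, so their markers were read beside these genes. Of 13 fibroblast markers, 12 stayed below 1 FPKM in every library and 6, among them Lum, Dpt and Pdgfrb, were at 0 throughout. The collagen gene Col1a1 was the highest of those 12, at no more than 0.176 FPKM. The remaining marker, the proteoglycan gene Dcn, had 5.22 ± 1.09 (control), 2.03 ± 0.531 (HFD) and 3.78 ± 0.576 FPKM (aged) (SD, n = 3). Its group means ran in the order opposite to those of Postn, for which aged and control libraries overlapped. The part of fibroblasts in the Postn values was not tested. Without Dcn the list summed to 0.0905 to 0.176 FPKM in control, 0.0892 to 0.210 in HFD and 0.0111 to 0.115 in aged. Dcn was called lower in HFD than in control (-1.04 ± 0.16, adjusted p = 0.00239, limma). In bulk RNA, fewer cells of a type and less RNA per cell cannot be told apart.

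**Figure D3:**
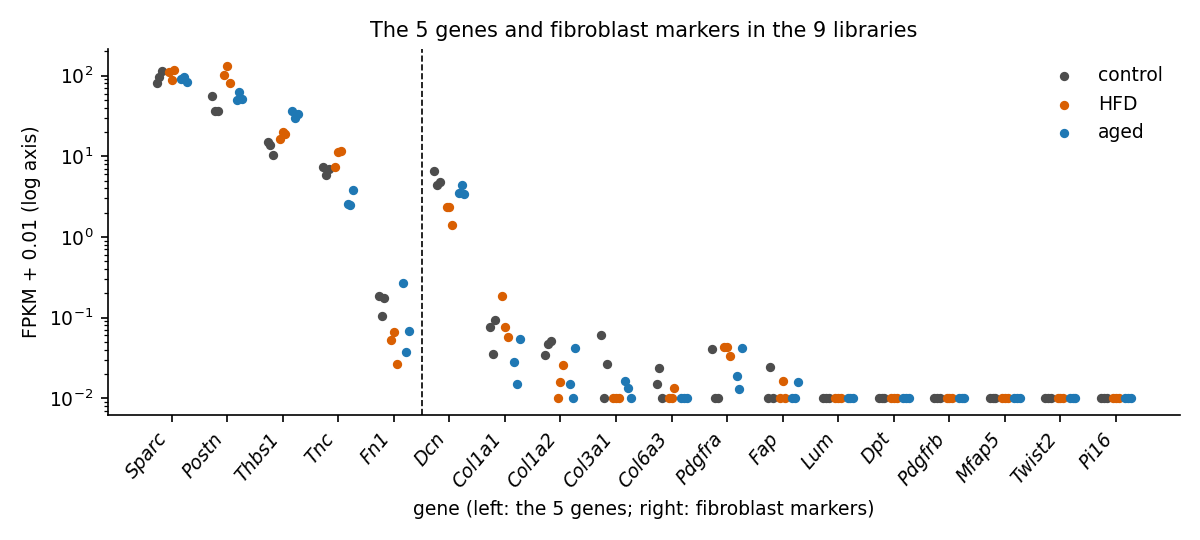
FPKM plus 0.01 on a log axis for the 5 genes (left of the dashed line) and 13 fibroblast markers (right), with 1 point per library coloured by group. Sparc, Postn, Thbs1 and Tnc lie orders of magnitude above the fibroblast collagens, Fn1 lies near them, and 6 markers sit at 0 in every library.

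Other marker lists were low as well, and the basal ones high. The 7 basal keratinocyte markers summed to at least 23728 FPKM in every library. Itga6, which encodes the CD49f used in the sort, was called higher in HFD than in control (0.29 ± 0.07, adjusted p = 0.0168) and lower in aged than in HFD (-0.40 ± 0.07, adjusted p = 0.00575, both limma). The first was lost when control replicate 2 or HFD replicate 2 or 3 was left out (up to 0.0648). All 7 melanocyte and Schwann markers stayed below 1 FPKM, and Aqp5 was the only 1 of 5 sweat gland luminal markers to reach it. Of 8 myeloid and Langerhans markers only Cd74 and H2-Ab1 reached 1 FPKM, and that list summed to 5.09 to 11.7 FPKM in control, 4.97 to 7.67 in HFD and 4.87 to 7.57 in aged.

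Relatives of the 5 genes were read from a list of 33 other matricellular genes, of which 14 were tested and 19 stayed below 1 FPKM in every library. In HFD against control 3 were called higher and 1 lower, where 8.26% and 8.76% of all tested genes were, with a median log2 difference of 0.10 (all genes 0.01). For aged against control the counts were 3 and 1 (all genes 4.01% and 3.74%) with a median of 0.04 (all genes -0.01), and for aged against HFD 3 and 2 (all genes 3.54% and 4.45%) with a median of -0.02 (all genes -0.003). The shares called, 28.6%, 28.6% and 35.7%, stand beside 17%, 7.76% and 7.99% of all genes. The 2 most abundant, Lgals3, a galectin, and Tgfbi, the fasciclin domain relative of periostin, were not called in any comparison. Tgfbi had 171 ± 9.47 (control), 186 ± 10.98 (HFD) and 195 ± 14.4 FPKM (aged) (SD, n = 3), a log2 difference of 0.12 ± 0.08 for HFD against control.

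Within the thrombospondin family, Thbs1 was the gene that was higher in aged. Thbs2 had means of 15.2 ± 1.85 (control), 12.5 ± 1.25 (HFD) and 11.6 ± 0.823 FPKM (aged), and was not called (-0.36 ± 0.10 for aged against control, adjusted p = 0.0507, limma). Thbs3, a pentameric member, was called lower in aged, at 3.67 ± 0.578 (control), 2.70 ± 0.333 (HFD) and 2.10 ± 0.284 FPKM (aged) (-0.59 ± 0.12, adjusted p = 0.0151). The Thbs3 call did not survive leaving out control replicate 2 or aged replicate 1 or 2 (adjusted p up to 0.0566) and when genes of low level were kept (0.0813). Thbs4 was at 0 in every library and Comp did not exceed 0.142 FPKM. Thbs1 made up 40.8% ± 6.70 of the summed FPKM of Thbs1, Thbs2 and Thbs3 in control, 54.9% ± 4.13 in HFD and 70.9% ± 1.93 in aged (SD, n = 3). The 9 libraries did not overlap between groups in this share. Because Thbs1 had been picked for its group differences, that separation is a description only and was not tested. The tenascin relatives of Tnc were low, with Tnxb at 0.718 FPKM or less, Tnr at 0.0703 or less and Tnn at 0 in every library.

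**Figure D4:**
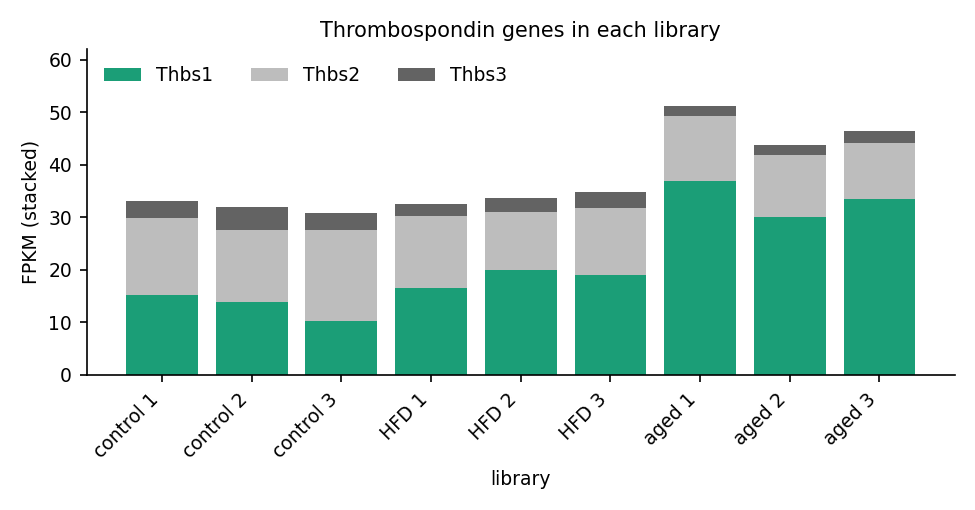
FPKM of Thbs1, Thbs2 and Thbs3 stacked in each of the 9 libraries (vertical axis from 0). Summed levels are 30.9 to 34.8 FPKM in the control and HFD libraries and 43.8 to 51.2 in the aged ones, where Thbs1 takes 68.6% to 72.2% of the sum.

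Among the CCN genes, secreted matricellular factors induced by growth factors and mechanical load, Ccn1 and Ccn2 were tested, and Ccn1 alone was called in aged against control (Ccn2 adjusted p = 0.0649, limma). Ccn1 had 68.1 ± 21.9 (control), 83.0 ± 20.95 (HFD) and 159.5 ± 5.14 FPKM (aged) (SD, n = 3). It was called higher in aged than in control (1.26 ± 0.20, adjusted p = 0.00488) and in HFD (0.96 ± 0.20, adjusted p = 0.0158, both limma). Those calls ended when genes of low level were kept (0.0819 and 0.154), and the second also without HFD replicate 2 (0.0564). Ccn2, at 7.21 ± 2.02, 6.33 ± 1.004 and 12.4 ± 3.98 FPKM, was called in aged against HFD (adjusted p = 0.0336) but not without any 1 of the HFD libraries or aged replicate 2 or 3 (up to 0.105). Ccn5 was at 0 in every library, and Ccn3, Ccn4 and Ccn6 did not exceed 0.170 FPKM.

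The SPARC family and smaller matrix genes gave calls in both directions. Smoc2, a calcium-binding relative of SPARC in basement membranes, was 34.7 ± 1.77 (control), 39.1 ± 0.823 (HFD) and 31.1 ± 0.694 FPKM (aged), and was called in aged against HFD (-0.32 ± 0.06, adjusted p = 0.0128), not without HFD replicate 2 (0.0610). Igfbp7, which binds insulin-like growth factors, rose in HFD from 73.3 ± 9.13 to 101 ± 12.6 FPKM (0.46 ± 0.11, adjusted p = 0.0163) and was lower in aged than in HFD (-0.58 ± 0.11, adjusted p = 0.00865). The Igfbp7 call in HFD ended without control replicate 2 or HFD replicate 3 (up to 0.0667) and when genes of low level were kept (0.0992), as did the call in aged against HFD under that last setting (0.0866). Lgals1, a galectin, was higher in HFD (0.77 ± 0.19, adjusted p = 0.0195), a call that ended without HFD replicate 1 or 2 (up to 0.0657). Spock2, a proteoglycan of the SPARC family, was called lower in HFD (-0.58 ± 0.17, adjusted p = 0.0380). This call was lost when control replicate 1 or 2, or replicate 1 or 3 of HFD, was left out (up to 0.125), and after the GC correction. Spock2 was called higher in aged than in HFD (0.67 ± 0.17, adjusted p = 0.0366), not without control replicate 2, HFD replicate 1 or 3 or aged replicate 2 or 3 (up to 0.122). Efemp1, a fibulin, was called higher in aged than in control (0.48 ± 0.12, adjusted p = 0.0298). The Efemp1 call ended without control replicate 2 or 3 or aged replicate 1 (up to 0.101), and after the GC correction. Fbln7, another fibulin, was called higher in HFD (adjusted p = 0.0468) and in aged (0.0480), and 12 of the 20 alternatives ended each call, among them leaving out any control library or HFD replicate 1 or 3 (up to 0.156 and 0.147). Sparcl1, Spp1, Fstl1 and Vtn stayed below 1 FPKM.

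**Figure D5:**
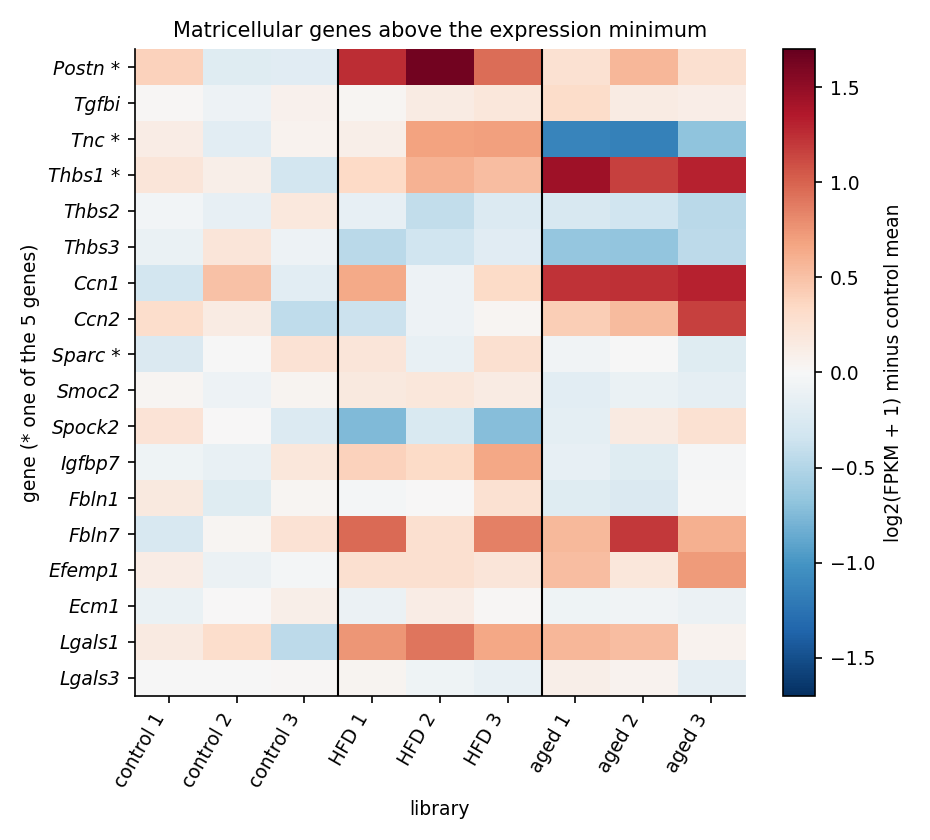
Log2(FPKM + 1) minus the control mean of the gene (colour, from -1.15 to 1.64) for 18 matricellular genes in rows, with Postn, Tnc, Thbs1 and Sparc starred, and the 9 libraries in columns. Postn is red in the 3 HFD columns, Thbs1 and Ccn1 in the 3 aged columns, and Tnc is blue in the 3 aged columns.

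Receptors for the 5 proteins were tested for 15 of 23 listed. In HFD against control 1 was called higher and 3 lower, with a median of 0.05 and an unadjusted p under 0.05 for 6. In aged against control 0 were higher and 1 was lower (5 with an unadjusted p under 0.05, limma), and in aged against HFD 0 were called in either direction (3 with an unadjusted p under 0.05). The shares called were 26.7%, 6.67% and 0%, beside 17%, 7.76% and 7.99% of all genes tested, and an unadjusted p under 0.05 was reached by 34%, 25.8% and 24.4% of all genes. Sdc4, a heparan sulfate proteoglycan that binds fibronectin and tenascin C, fell in HFD from 121 ± 1.80 to 94.8 ± 4.17 FPKM (-0.35 ± 0.07, adjusted p = 0.00999), a call kept in all 21 alternative settings. Itga3, a laminin receptor chain (-0.45 ± 0.11, adjusted p = 0.0202), Itga2, a collagen receptor chain (0.41 ± 0.10, adjusted p = 0.0214), and Stab1, a scavenger receptor for SPARC (-0.38 ± 0.12, adjusted p = 0.0481), were called in HFD, but none kept its call without every library: Itga3 lost it without control replicate 3 or HFD replicate 1 or 2 (up to 0.0677), Itga2 when control replicate 1 or 2, or replicate 1 or 3 of HFD, was left out (up to 0.0769), and Stab1 without any library but aged replicate 1 (up to 0.159). The GC correction also ended the HFD calls of Itga3, Itga2 and Stab1. Sdc1, the syndecan of epithelia and most abundant receptor, was called lower in aged than in control (-0.28 ± 0.08, adjusted p = 0.0448). That call ended without any library but control replicate 1 (up to 0.135), and also after the GC correction. Calr, the thrombospondin-binding chaperone calreticulin, was not called. The integrin chains Itgav, Itgb1, Itgb5 and Itgb6, which pair as receptors for periostin, tenascin C and fibronectin, were tested and not called in any comparison, nor was Cd47. Cd36 did not exceed 0.351 FPKM and Itga9, a tenascin C receptor chain, 0.00833.

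Genes that build and cross-link collagen matrix were tested for 11 of 22 listed. In HFD against control 2 were called higher and 2 lower (median 0.13), in aged against control 2 and 0 (median -0.15), and in aged against HFD 0 and 1 (median -0.08). The shares called were 36.4%, 18.2% and 9.09%, beside 17%, 7.76% and 7.99% of all genes tested. Plod1, a collagen lysyl hydroxylase, rose from 2.91 ± 0.401 FPKM in control to 4.80 ± 0.275 in HFD (0.57 ± 0.10, adjusted p = 0.00509) and to 5.64 ± 0.610 in aged (0.77 ± 0.10, adjusted p = 0.00198, limma). Col12a1, a collagen that binds tenascins, rose in HFD (0.49 ± 0.08, adjusted p = 0.00459), and its call in aged (0.35 ± 0.08, adjusted p = 0.0317) ended without any control library or aged replicate 1 or 2 (up to 0.113). Bmp1, the procollagen proteinase, was called lower in HFD (-0.39 ± 0.09, adjusted p = 0.0127) but not without control replicate 2 or HFD replicate 1 (up to 0.0562), and Plod3, another lysyl hydroxylase, was called lower (-0.27 ± 0.07, adjusted p = 0.0252) but not after the GC correction (0.228), nor when control replicate 2 or 3, or replicate 1 or 2 of HFD, was left out (up to 0.0914). Col6a1, a collagen VI chain, was called lower in aged than in HFD (-0.77 ± 0.17, adjusted p = 0.0224), not without HFD replicate 2 or 3 (up to 0.0839). The most abundant, the endoplasmic reticulum proteins P4hb and Serpinh1, were not called, and Lox, Loxl1, Loxl2 and Loxl3, lysyl oxidases that cross-link collagen, did not exceed 0.0341 FPKM.

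Signals known to act on these genes showed no called change. Of 20 genes of TGF-beta and type 2 cytokine signalling, which induce periostin in other settings, 18 were tested and 0 were called in any of the 3 comparisons by limma. An unadjusted p under 0.05 was seen for 2 in HFD against control, 2 in aged against control and 0 in aged against HFD, where the shares of all genes were 34%, 25.8% and 24.4%. The median differences were 0.04, 0.03 and -0.01. The 2 most abundant, the interleukin 13 receptor chain Il13ra1 and the kinase Jak1, had differences of 0.04 ± 0.10 and 0.09 ± 0.07 in HFD against control.

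The genes most like each of the 5 were found by the root mean square difference of centred log2(FPKM + 1) over the 9 libraries, among 10168 genes. On the same scale the variation of each gene around its own mean was 0.59 for Postn, 0.65 for Tnc and 0.56 for Thbs1. For Postn the nearest was Cald1, the actin-binding protein caldesmon, at 0.29 (means of 1.76, 3.92 and 2.12 FPKM in control, HFD and aged), then Gsdmc, a gasdermin, at 0.31 and Steap4, a metalloreductase, at 0.31. For Tnc they were Depdc1a, a gene of dividing cells, at 0.23, Tppp3, a tubulin-binding protein, at 0.25 and Krt6a, a stress-inducible keratin, at 0.30. For Thbs1 they were Mcam, a cell adhesion molecule, at 0.19 (1.21, 1.95 and 4.35 FPKM), Ifi27l2a, an interferon-induced gene, at 0.19 and Piwil2, an Argonaute family protein, at 0.19. For Sparc, whose own variation around its mean was 0.18, they were Ackr4, a chemokine receptor, at 0.10, Nck2, an adaptor protein, at 0.10 and Tcaf1, a channel-associated factor, at 0.10. On this scale Fn1 barely varied (0.10), and the nearest genes, Pym1, Ldhd and Cops8, carry no more than that. Gsdmc and Piwil2 were low, with control means of 0.742 and 0.647 FPKM. Likeness over 9 libraries in 3 groups is mainly likeness of the 3 group means.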

How the data were processed

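The data were 9 RNA-seq libraries from sorted basal cells of plantar skin, 3 per group. The authors deposited 1 table of FPKM with 1 column per library and 22399 genes. Per the submitters' processing notes, the build was mm10 and the tools included STAR 2.6.0c, HTSeq 0.11.2, cutadapt and DESeq2 1.30.0; which tool made the FPKM, the gene lengths and the use of strand are not given in the sources used here. Per the labels' protocols, RNA was made into TruSeq stranded mRNA libraries.

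Depth was estimated by multiplying low FPKM by merged exon lengths of GENCODE M21, which matched 22285 genes: values fell on whole reads for 97.4% to 98.2% of genes up to 30 reads (tolerance 0.02). Genes averaging 1 FPKM or more were transformed to log2(FPKM + 1) and fitted in R 4.3.3 by limma 3.58.1 (a mean per group, eBayes with a trend, two-sided, 6 residual and 5.5 prior degrees of freedom), and a call was an adjusted p under 0.05 (Benjamini-Hochberg, over all genes tested). Fn1 was under that minimum, so the planned limma test could not be applied, and it was tested by an exact permutation test (scipy 1.17.1). A count test was not run, since FPKM are not counts. Fits were tested on simulated data.

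The 5 genes, the gene lists and the tests were chosen with earlier results of these data known. Named were the 5 genes, up to 4 called members of each list per comparison, its 2 most abundant members, and the 3 genes most like each of the 5, without predicted gene models; genes named for being low were chosen after their values were seen. Alternatives were a pseudocount of 0.1, no filter, a minimum of 5 FPKM, 3 scalings, library weights, robust eBayes, only the libraries compared, a replicate block, a GC correction (loess, span 0.5, alone or with the block) and leaving out each library. Promoter sequences are RefSeq's, on GRCm38.p6, and were found for 3 of the 5 genes.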

Additional observations from a re-analysis of the deposited data

Results flagged for a closer look

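Smoc2, a relative of Sparc, stood above all control libraries in every HFD library and below all of them in every aged library. Against control it was called neither in HFD (adjusted p = 0.0905) nor in aged (0.165, both limma). The direct comparison of aged with HFD gave -0.32 ± 0.06 (adjusted p = 0.0128, limma), a call that ended without HFD replicate 2 (0.0610). Only the 5 genes and listed genes called in some comparison were searched for this pattern. Smoc2 had no other call, so this call was a condition of being found and is no separate evidence for the pattern. Of all genes tested, 20.8% lay higher without overlap in HFD than in control and 14.1% lower in aged than in control. The share of all genes with both was not counted. None of the 5 genes showed such opposite shifts without overlap, since HFD replicate 1 of Tnc lay inside the control range. Groups of 3 libraries are too small to look for single outlying libraries.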

How the results depend on the processing

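The differences of Postn, Tnc and Thbs1 kept their sign in all 21 alternatives and moved by less than the spread between libraries. Leaving out single libraries gave 1.10 to 1.48 for Postn, 0.39 to 0.69 for Tnc and 0.33 to 0.59 for Thbs1 in HFD against control, 0.27 to 0.57, -1.13 to -0.90 and 1.15 to 1.41 in aged against control, and -1.08 to -0.74, -1.67 to -1.37 and 0.74 to 0.89 in aged against HFD. Sparc was not called in any alternative (adjusted p from 0.190 to 1), and its differences were -0.0048 to 0.24, -0.21 to 0.04 and -0.33 to -0.12 without single libraries. Fn1 differences of log2(FPKM + 1) were -0.14, -0.04 and 0.10, and -0.82, -0.33 and 0.49 with a pseudocount of 0.1, as a smaller pseudocount must give for a gene under 1 FPKM; without single libraries they were -0.17 to -0.12, -0.14 to 0.01 and 0.01 to 0.15, and with no filter it was not called (0.448, 1 and 0.759).

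Counts over all genes, which set the background, moved more. HFD against control had 856 genes higher and 908 lower, 385 to 1037 and 364 to 1072 without single libraries, 367 and 327 with no filter, and 559 lower after GC correction. Scaling to total FPKM gave 598 and 1165 there. Aged against control had 416 and 388, 187 to 586 and 113 to 661 without single libraries, 125 and 101 with no filter, and 269 and 192 with only the 6 libraries compared. Aged against HFD had 367 and 461, 168 to 355 and 197 to 435 without single libraries, and 52 and 100 with no filter. Counts moved over 1.5 times without control replicate 2 or 3 or any HFD library in the first comparison, without control replicate 2 or 3, HFD replicate 2 or any aged library in the second, and without any HFD library or aged replicate 1 in the third. The cause was not tested. Of 25 calls in the 4 lists, 4 held in all alternatives and 19 ended without at least 1 library.

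Deviations from the group mean correlated at r from -0.05 to 0.27 between same-numbered libraries and from -0.29 to 0.22 between differently numbered ones. The main fit did not take the numbers as pairs, and a shared effect of the number was not tested. With the replicate block HFD against control had 978 and 1083 calls, aged against control 557 and 580, and aged against HFD 465 and 522. These counts were above those of the main fit in every comparison and direction, and Sparc was not called. Depth limits Fn1, at 5 to 101 reads, and not the other genes.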

Other observations

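The 5 genes together summed to 159 ± 7.90 (control), 239 ± 11.4 (HFD) and 181 ± 9.69 FPKM (aged) (SD, n = 3). Sparc held 60.5% ± 8.81 of that sum in control, 44.1% ± 8.29 in HFD and 49.7% ± 1.04 in aged. Postn held 26.9% ± 7.07, 43.8% ± 8.42 and 30.1% ± 2.57, and Thbs1 8.26% ± 1.87, 7.76% ± 0.660 and 18.5% ± 2.42. The ratio of Postn to Tnc was 5.19 to 7.46 in control, 7.12 to 13.9 in HFD and 13.4 to 25.0 in aged. These are FPKM of RNA, the 3 picked genes enter them, and no test was made.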
